A study of Mus musculus with 10 samples.

Results

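The SLC25 family of mitochondrial carriers was described in mouse kidney after ischaemia and reperfusion. Its members were the genes whose symbol, found from the Ensembl identifier, was Slc25a followed by a number, together with Ucp1, Ucp2 and Ucp3, and they numbered 50 of the 55359 genes in the deposited table. The pseudogene Slc25a5-ps was left out. Kidneys of male mice were compared between 5 libraries taken after sham surgery and 5 taken after 30 min of kidney ischaemia and 24 h of reperfusion (IRI). The series concerns dietary methionine deprivation and glucose oxidation in this injury, but no label gives a diet, strain or age, or the interval from sham surgery to sampling. They do not say whether libraries are from separate mice either, and p-values therefore cover only library-to-library spread, which may be technical.

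Mitochondrial carriers are small proteins of the inner mitochondrial membrane that exchange ADP for ATP and move phosphate, organic acids, amino acids, cofactors and metal ions between the cytosol and the matrix. They are encoded in the nucleus and reach the membrane through the TIM22 import route. The tubule, and the proximal tubule above all, makes most of its ATP by oxidative phosphorylation, and several carriers also serve gluconeogenesis, ammonia formation and amino acid synthesis there.

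Libraries held 13147899 to 18603272 counts, of which carriers took 0.538% to 0.593% in sham and 0.458% to 0.526% in IRI. Libraries of a group correlated at 0.959 to 0.988 (log2 CPM), and libraries of different groups at 0.806 to 0.879. Kidney identity was checked with 10 proximal tubule markers, whose summed level was 2442 to 3071 FPKM in sham and 164 to 1026 FPKM in IRI, highest in IRI replicate 1, and none was at 0. FPKM is scaled by library totals. Fold changes were fitted by edgeR with TMM factors, which averaged 0.916 in sham and 1.09 in IRI, so the fitted fold of each of the 41 tested carriers is lower than its ratio of FPKM means. Changes are given below as log2 fold changes (IRI against sham) with their standard errors, and adjusted p-values are edgeR's where no other test is named. With library totals in place of TMM factors, fold changes of all genes were higher by a median of 0.25 on the log2 scale.

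Of the 50 carriers, 41 reached 1 FPKM in at least 5 libraries and were tested. In IRI kidneys 21 of them were lower, 5 were higher and 15 were not called (edgeR, adjusted p under 0.05), with a median log2 fold change of -0.44. Lower calls made up 51.2% of the tested carriers and 32.4% of all 13324 genes tested. Higher calls made up 12.2% of them and 34.5% of all genes. In either direction 66.9% of all genes were called, and the median log2 fold change of all genes tested was 0.05. A change of at least 2-fold was called lower in 8 carriers and higher in 2, against 15.0% and 11.9% of all genes. FPKM values of the groups did not overlap for 14 lower carriers (18.6% of all genes were lower without overlap) and for 5 higher ones (36.7% of all genes, and 55.3% in either direction). These overlap counts rest on scaling by library totals and were not repeated with TMM factors. With those factors the groups overlap for the higher carriers Slc25a20 and Slc25a22. With library totals, 18 carriers were lower and 10 higher, so that 35.7% of their calls were higher in place of 19.2%, and 47.4% of all genes were higher and 23.6% lower (71.0% in either direction). Calls of 8 carriers differed between these scalings, and no called carrier changed sign.

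**Figure D1:**
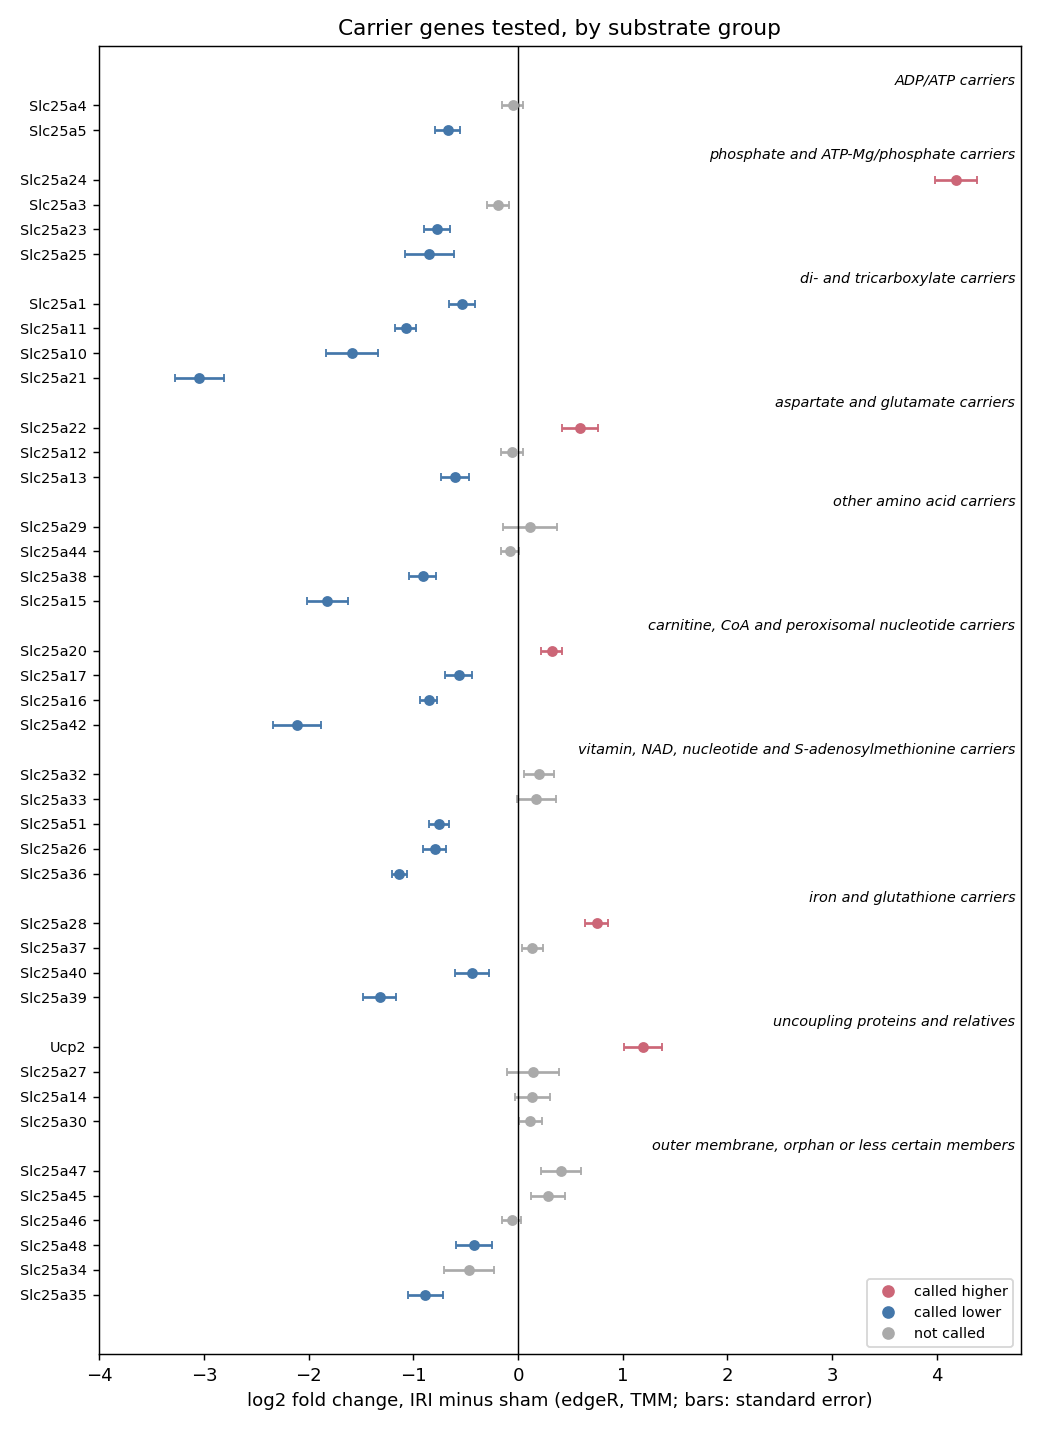
Log2 fold change (IRI minus sham, edgeR with TMM factors) of 40 tested carriers, grouped by substrate, with the standard error as bars and the call as colour. Slc25a24 stands alone at 4.18 ± 0.20, and all 4 di- and tricarboxylate carriers lie below 0.

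Of the 9 carriers not tested, Slc25a54 had 0 counts in all 10 libraries, which allows up to 3 counts. The other 8 were low, and an edgeR fit with no filter on low values called 2 of them higher, Ucp3 and Slc25a43. In that fit 7 carriers were higher, 19 lower and 23 not called of 49, against 19.3% higher and 18.0% lower among 30454 genes.

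Carrier transcripts summed to 1657 to 1846 FPKM in sham and 1354 to 1533 FPKM in IRI, with no overlap. The ADP/ATP carriers held 38.1 to 38.8% of this sum in sham and 36.6 to 40.5% in IRI. The di- and tricarboxylate carriers held 13.4 to 14.5% in sham and 7.77 to 10.6% in IRI. Uncoupling proteins and their relatives held 2.57 to 2.83% and 4.66 to 7.13%, and the phosphate and ATP-Mg/phosphate carriers 11.1 to 12.2% and 15.2 to 18.3%. These shares are descriptions of composition and were not tested. In this whole tissue, fewer cells of a type and less RNA per cell cannot be told apart.

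**Figure D2:**
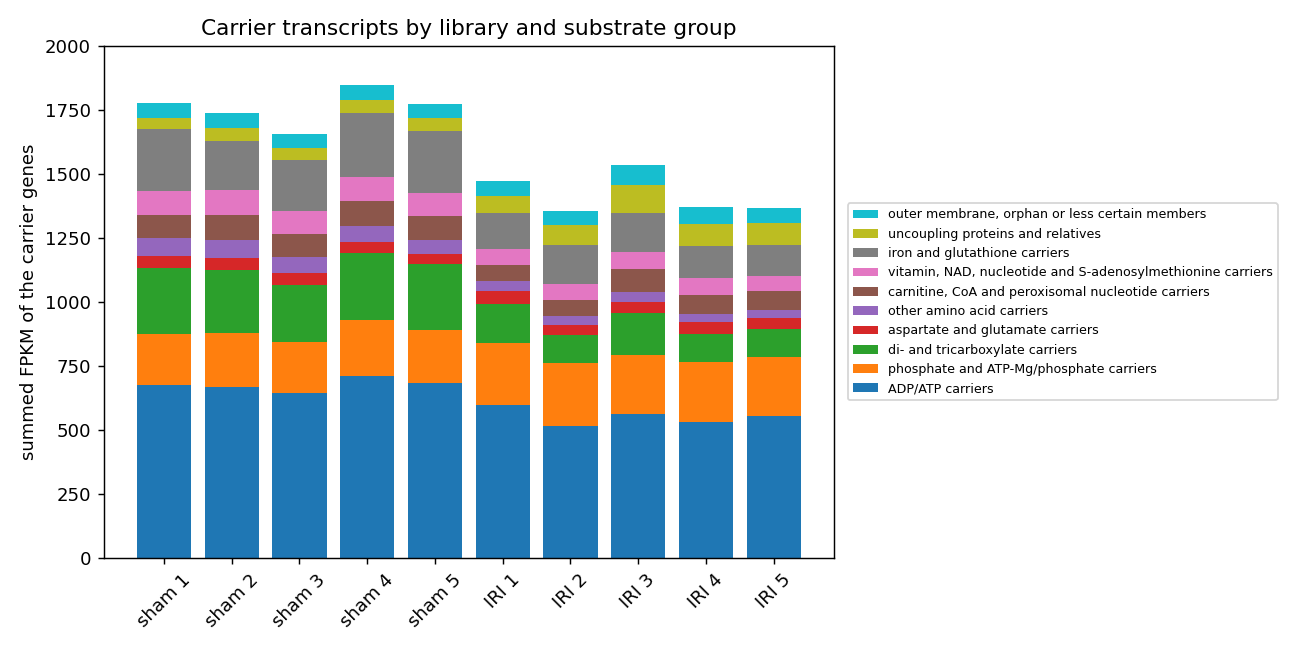
Summed FPKM of the 50 carriers in each library (bars from 0), divided by substrate group. Bars of the sham libraries reach 1657 to 1846 FPKM and those of IRI 1354 to 1533 FPKM, and the di- and tricarboxylate block is shorter in every IRI library.

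The carrier with the largest rise was Slc25a24, an ATP-Mg/phosphate carrier that calcium activates and that adjusts the adenine nucleotide pool of the matrix. Its level was 1.75, 0.99, 2.68, 1.74 and 1.83 FPKM in sham replicates 1 to 5 and 30.9, 40.0, 38.0, 41.2 and 44.1 FPKM in IRI replicates 1 to 5. Every IRI library lay above 30 FPKM and every sham library below 3 FPKM, with IRI replicate 1 the lowest of its group. The rise was 4.18 ± 0.20 on the log2 scale (adjusted p = 2.88e-08), an increase of 18.2-fold. Among carriers Slc25a24 went from 0.057 to 0.162% of the summed level to 2.10 to 3.22%.

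Markers of other cell types also moved, though among all genes tested 34.5% were called higher and 32.4% lower. The summed level of 7 neutrophil markers was 1.08 to 3.27 FPKM in sham and 23.2 to 107 FPKM in IRI. Of these, 5 passed the filter and were higher, but S100a8, Retnlg, Csf3r and Clec4d passed it only through IRI libraries, so their direction was fixed by the filter. The sum of 5 fibroblast and pericyte markers was 67.1 to 120.1 FPKM in sham and 238 to 379 FPKM in IRI, with 3 higher. Endothelial markers summed to 38.2 to 55.9 FPKM and 67.2 to 99.4 FPKM, with 4 of 5 higher, and podocyte markers to 50.1 to 83.9 FPKM and 127 to 154 FPKM, with 3 of 4 higher. The 8 monocyte and macrophage markers summed to 31.65 to 48.6 FPKM and 40.3 to 83.4 FPKM, with 2 higher and 1 lower of 5 tested. Of the 2 higher, Itgam passed the filter only through IRI libraries (sham at or below 0.24 FPKM), so its direction was fixed too.

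Tubule segments differed among themselves. Intercalated cell markers summed to 79.5 to 103 FPKM in sham and 123.3 to 189 FPKM in IRI (3 higher and 1 lower of 5), and those of the distal convoluted and connecting tubule to 177 to 281 FPKM and 95.4 to 158 FPKM (3 of 4 lower). Thick ascending limb markers summed to 783 to 1727 FPKM and 1431 to 2623 FPKM (2 higher and 4 lower of 6), and principal cell markers to 226 to 517 FPKM and 266 to 647 FPKM (1 of 5 lower). Umod made most of the thick ascending limb sum, with means of 903 FPKM in sham and 1867 FPKM in IRI. Umod and Cldn16 were higher, and Slc12a1, Kcnj1, Cldn10 and Egf were lower. The 7 T cell and B cell markers were all below the filter, and 5 were lower in the fit with no filter. None of these markers was at 0 in all libraries. Slc25a24 was lowest in IRI replicate 1 and highest in IRI replicate 5. IRI replicates 1 and 5 were likewise lowest and highest for the fibroblast and pericyte sum (238 and 379 FPKM). So they were for the intercalated cell sum (123.3 and 189 FPKM) and the monocyte and macrophage sum (40.3 and 83.4 FPKM). Among the fibroblast and pericyte markers only Ren1 was highest in replicate 5 (231 FPKM). Pdgfrb and Pdgfra were highest in replicate 4, and Col1a1 and Acta2 in replicate 3. The endothelial sum was lowest in replicate 1 (67.2 FPKM), and the neutrophil sum was highest there (107 FPKM). The part of these cells in the carrier levels was not tested.

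No other member of the ATP-Mg/phosphate group was called higher. Slc25a23 was at 22.0, 18.7, 18.7, 18.0 and 15.0 FPKM in sham replicates 1 to 5 and 13.2, 10.4, 12.3, 12.9 and 15.4 FPKM in IRI replicates 1 to 5. It fell by 0.77 ± 0.12 (adjusted p = 0.000134), and the groups overlapped through IRI replicate 5. Slc25a25 was at 15.7, 28.2, 29.9, 27.9 and 27.0 FPKM in sham replicates 1 to 5 and 17.8, 20.0, 22.2, 15.1 and 9.60 FPKM in IRI replicates 1 to 5. It fell by 0.85 ± 0.23 (adjusted p = 0.00649), although sham replicate 1 lay within the IRI range. The Slc25a23 locus overlaps Crb3 on the other strand, which had 41.0% as many counts and a log2 fold change of 0.67. Slc25a41 had 2 counts in sham and 1 in IRI. Slc25a3, the phosphate carrier that feeds ATP synthase, was the third most abundant carrier in sham after Slc25a5 and Slc25a39, at 162 ± 8.73 FPKM in sham and 169 ± 9.16 FPKM in IRI (SD, n = 5). Its log2 fold change of -0.19 ± 0.10 was not called (adjusted p = 0.126), but it was called lower by DESeq2 (-0.21, adjusted p = 0.0436) and without IRI replicate 1 (-0.25, adjusted p = 0.0379).

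The ADP/ATP carriers exchange matrix ATP for cytosolic ADP and are among the most abundant proteins of the inner membrane. Slc25a5, the isoform of most dividing and epithelial cells, was at 552, 548, 533, 585 and 559 FPKM in sham replicates 1 to 5 and 488, 384, 398, 379 and 416 FPKM in IRI replicates 1 to 5. All IRI values were under all sham values, and Slc25a5 fell by 0.67 ± 0.12 (adjusted p = 0.000317). Slc25a4, the isoform of heart and muscle, was at 125, 119, 110.0, 124 and 122.9 FPKM in sham replicates 1 to 5 and 110.0, 129, 162, 153 and 137 FPKM in IRI replicates 1 to 5. Its groups overlapped and its log2 fold change was -0.05 ± 0.10 (adjusted p = 0.664), a value near 0 whose sign turned under library totals (0.21, not called). The testis isoform Slc25a31 had 15 counts in sham and 3 in IRI.

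All 4 di- and tricarboxylate carriers fell, with a median log2 fold change of -1.33. Slc25a21 carries oxoadipate, an intermediate of lysine and tryptophan breakdown, into the matrix. It was at 6.34, 5.46, 4.65, 4.79 and 5.50 FPKM in sham replicates 1 to 5 and 1.19, 0.69, 0.87, 0.59 and 0.49 FPKM in IRI replicates 1 to 5. Its fall of 3.04 ± 0.24 (adjusted p = 7.49e-07) was the largest of the tested carriers, and it passed the filter through its sham libraries and IRI replicate 1. Slc25a10, the dicarboxylate carrier that exchanges malate or succinate for phosphate, was at 119, 129, 105, 130.5 and 129.9 FPKM in sham replicates 1 to 5 and 67.0, 38.4, 69.8, 35.8 and 29.4 FPKM in IRI replicates 1 to 5. It fell by 1.58 ± 0.25 (adjusted p = 0.000141), with IRI replicates 1 and 3 higher than the other three.

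Slc25a11, the oxoglutarate carrier of the malate-aspartate shuttle, was at 77.8, 67.4, 68.2, 76.9 and 73.4 FPKM in sham replicates 1 to 5 and 41.6, 34.1, 46.0, 41.8 and 41.9 FPKM in IRI replicates 1 to 5. It fell by 1.07 ± 0.10 (adjusted p = 2.18e-06) with no overlap. Its locus overlaps Rnf167 on the other strand, which had 56.7% as many counts and a log2 fold change of -0.67. Slc25a1 exports citrate for fatty acid and sterol synthesis. It was at 54.2, 44.4, 44.3, 49.5 and 46.5 FPKM in sham replicates 1 to 5 and 44.2, 36.5, 46.2, 34.4 and 34.4 FPKM in IRI replicates 1 to 5. Its fall of 0.53 ± 0.12 (adjusted p = 0.00233) was the smallest of the group, and IRI replicate 3 overlapped the sham libraries.

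Of the 3 aspartate and glutamate carriers tested, 1 fell and 1 rose. Slc25a13 (citrin), the calcium-regulated aspartate/glutamate carrier of liver and kidney epithelium, was at 33.9, 33.9, 32.2, 28.7 and 25.4 FPKM in sham replicates 1 to 5 and 29.2, 19.6, 21.6, 24.7 and 24.9 FPKM in IRI replicates 1 to 5. It fell by 0.60 ± 0.14 (adjusted p = 0.00181), with IRI replicate 1 inside the sham range. Slc25a12 (aralar), its counterpart in brain and muscle, was at 9.73, 9.40, 10.5, 9.80 and 7.58 FPKM in sham replicates 1 to 5 and 9.49, 9.43, 10.6, 11.3 and 13.03 FPKM in IRI replicates 1 to 5, and its log2 fold change of -0.06 ± 0.10 was not called (adjusted p = 0.628). Slc25a22, which imports glutamate, was higher. Its levels were 4.40 to 5.20 FPKM in sham and 5.29 to 10.4 FPKM in IRI, without overlap as scaled by library totals. The rise with TMM factors was 0.59 ± 0.17 (adjusted p = 0.00935). On that scale the groups overlap, since IRI replicate 5, at 5.29 FPKM, had a factor of 1.14 and sham factors were 0.8945 to 0.941. The other glutamate carrier, Slc25a18, stayed at or below 0.49 FPKM. Its locus overlaps Atp6v1e1 on the other strand, which had 38554 counts against 93, so the reads given to it are uncertain.

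Among the remaining amino acid carriers, Slc25a15 brings ornithine into the matrix and takes citrulline out. It was at 40.6, 42.0, 35.2, 36.0 and 30.8 FPKM in sham replicates 1 to 5 and 14.6, 10.6, 17.7, 9.53 and 9.36 FPKM in IRI replicates 1 to 5. The fall of 1.82 ± 0.20 (adjusted p = 7.82e-06) left every IRI library below every sham library. Slc25a38, the glycine carrier that supplies haem synthesis, fell by 0.91 ± 0.13 (adjusted p = 4.59e-05), with means of 12.97 ± 1.43 FPKM in sham and 8.17 ± 0.941 FPKM in IRI (SD, n = 5). Slc25a44, which carries branched-chain amino acids, was at 9.77 to 12.5 FPKM in sham and 12.4 to 13.8 FPKM in IRI and was not called (-0.07 ± 0.09). Slc25a29, a carrier of basic amino acids, ranged over 1.28 to 2.29 FPKM in sham and 1.24 to 3.47 FPKM in IRI and was not called. Slc25a2, a second ornithine carrier, had 20 counts in sham and 26 in IRI.

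All 4 carriers for carnitine, coenzyme A and peroxisomal nucleotides were called, 3 lower and 1 higher. Slc25a42 imports coenzyme A into the matrix. Its level was 20.8, 18.8, 16.5, 21.9 and 15.1 FPKM in sham replicates 1 to 5 and 5.59, 4.24, 8.22, 3.91 and 3.57 FPKM in IRI replicates 1 to 5. It fell by 2.11 ± 0.23 (adjusted p = 7.62e-06), with IRI replicate 3 the highest of its group. Slc25a16, also linked to coenzyme A, was at 26.1, 27.5, 28.2, 22.3 and 23.1 FPKM in sham replicates 1 to 5 and 15.2, 17.7, 16.6, 16.7 and 17.7 FPKM in IRI replicates 1 to 5 and fell by 0.85 ± 0.08 (adjusted p = 3.52e-06). The sham and IRI values of both genes were separate.

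Slc25a20 exchanges acylcarnitine for carnitine and so admits long-chain fatty acids to oxidation. It was at 11.8, 12.1, 11.6, 13.9 and 13.1 FPKM in sham replicates 1 to 5 and 16.8, 16.5, 22.9, 18.7 and 18.0 FPKM in IRI replicates 1 to 5. These values, scaled by library totals, did not overlap. With TMM factors the groups overlap, through IRI replicate 2 (factor 1.10) and sham replicate 4 (factor 0.907). The rise of 0.32 ± 0.10 (adjusted p = 0.0143) was small and was not called at an adjusted p under 0.01. The peroxisomal carrier Slc25a17 ranged over 34.4 to 41.1 FPKM in sham and 23.6 to 40.1 FPKM in IRI and fell by 0.57 ± 0.13 (adjusted p = 0.00207). This call ended with library totals (-0.31, adjusted p = 0.0661) and by limma (adjusted p = 0.0529 to 0.0540).

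Carriers of vitamins and nucleotides gave 4 lower calls and 2 without a call. Slc25a36, a pyrimidine nucleotide carrier, was at 13.6, 13.6, 13.6, 13.8 and 13.7 FPKM in sham replicates 1 to 5 and 7.25, 6.94, 7.09, 7.71 and 8.01 FPKM in IRI replicates 1 to 5. The sham libraries had an SD of 0.12 FPKM, and the fall was 1.14 ± 0.07 (adjusted p = 1.61e-07).

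The second pyrimidine carrier, Slc25a33, was at 7.35, 5.53, 5.42, 5.74 and 6.39 FPKM in sham replicates 1 to 5 and 8.63, 10.0, 5.45, 10.3 and 6.36 FPKM in IRI replicates 1 to 5, with overlap and no call (0.17 ± 0.19). Slc25a51, the NAD carrier, fell by 0.75 ± 0.09 (adjusted p = 2.27e-05), with means of 46.1 ± 2.79 FPKM in sham and 32.6 ± 2.43 FPKM in IRI (SD, n = 5). Slc25a26 imports S-adenosylmethionine, the methyl donor made from methionine. Its level was 3.28, 2.89, 3.51, 3.14 and 3.11 FPKM in sham replicates 1 to 5 and 2.20, 2.29, 2.37, 1.86 and 2.16 FPKM in IRI replicates 1 to 5. The groups were separate and the fall was 0.80 ± 0.11 (adjusted p = 5.31e-05). Its locus overlaps Lrig1 on the other strand, which had 151% as many counts and was not called (-0.15). Slc25a32, a folate and FAD carrier, ranged over 2.40 to 3.92 FPKM in sham and 3.74 to 4.70 FPKM in IRI and was called higher only with library totals and by limma (0.37 to 0.46).

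Iron enters the matrix through the mitoferrins Slc25a37 and Slc25a28, of which the first is the form of red cell precursors. Slc25a28 was at 12.9, 14.0, 14.2, 16.5 and 16.2 FPKM in sham replicates 1 to 5 and 27.5, 32.8, 24.1, 34.2 and 29.1 FPKM in IRI replicates 1 to 5. It rose by 0.75 ± 0.11 (adjusted p = 6.70e-05) without overlap. Slc25a37 was at 8.91, 10.3, 8.99, 8.51 and 10.9 FPKM in sham replicates 1 to 5 and 10.6, 13.04, 14.7, 11.5 and 12.5 FPKM in IRI replicates 1 to 5, and its log2 fold change of 0.13 ± 0.10 was not called with TMM factors but was with library totals (0.39, adjusted p = 0.00527) and by limma. Slc25a39 and Slc25a40 import glutathione. Slc25a39 was at 216, 168, 174, 221 and 213 FPKM in sham replicates 1 to 5 and 101, 105, 113, 75.8 and 75.4 FPKM in IRI replicates 1 to 5. It fell by 1.32 ± 0.16 (adjusted p = 1.57e-05), and IRI replicates 4 and 5 were the lowest. Slc25a40 was at 1.78, 2.06, 2.09, 1.98 and 1.65 FPKM in sham replicates 1 to 5 and 1.10, 1.33, 2.10, 1.9 and 2.02 FPKM in IRI replicates 1 to 5. Its lower call (-0.44 ± 0.16, adjusted p = 0.03) ended with library totals, by limma, with no filter and without any 1 of sham replicates 1 to 4 or IRI replicates 1 and 2 (adjusted p = 0.0525 to 0.0871).

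Ucp2, an uncoupling protein found in many tissues and in leukocytes, was higher. It was at 14.8, 14.5, 17.6, 17.0 and 17.3 FPKM in sham replicates 1 to 5 and 31.6, 30.7, 67.0, 46.0 and 46.5 FPKM in IRI replicates 1 to 5. Every IRI library exceeded every sham library, with IRI replicate 3 the highest, and the rise was 1.19 ± 0.18 (adjusted p = 0.000114). In IRI replicate 3 the neutrophil markers summed to 23.2 FPKM, the lowest of the IRI group, and the monocyte and macrophage markers to 66.6 FPKM, the second highest. Within IRI, Ucp2 was lowest in replicate 2, and the monocyte and macrophage sum in replicate 1 (40.3 FPKM). The part of these cells in the Ucp2 level was not tested. Ucp3, best known from muscle, had 19 counts in sham and 210 in IRI. Without a filter it was higher by 3.10 ± 0.63 (adjusted p = 0.000475), or by 3.93 without sham replicate 4. Its locus overlaps Gm10603 on the other strand, which had 346 counts and also rose (1.09).

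Ucp1, the uncoupling protein of brown fat, was at 1.23 FPKM in sham replicate 3 and at or below 0.29 FPKM in the other 9 libraries. Of 5 adipocyte and brown fat markers, Adipoq, Plin1 and Cidea were also highest in sham replicate 3 (0.84, 0.47 and 0.87 FPKM). Fabp4 was not, with 13.2 FPKM there, 17.4 FPKM in sham replicate 5 and 30.6 to 51.6 FPKM in IRI, and Lep stayed at or below 0.05 FPKM. Ucp1 was not called (-0.92 ± 0.85), and its fold change turned to 1.11 without sham replicate 3 (adjusted p = 0.330). The relatives Slc25a14, Slc25a27 and Slc25a30 were not called. Slc25a30, also called the kidney mitochondrial carrier protein, was at 26.6, 30.2, 24.6, 31.8 and 25.9 FPKM in sham replicates 1 to 5 and 31.6, 43.7, 35.6, 34.9 and 34.1 FPKM in IRI replicates 1 to 5, with a log2 fold change of 0.12 ± 0.11 (0.37 and called with library totals, adjusted p = 0.00842, and also by limma). Slc25a14 was at 2.82, 2.41, 1.86, 1.73 and 2.78 FPKM in sham replicates 1 to 5 and 2.63, 3.15, 3.20, 3.23 and 3.02 FPKM in IRI replicates 1 to 5, and was called higher by limma only (0.30 to 0.40). Slc25a27 ranged over 0.92 to 1.88 FPKM in sham and 1.10 to 2.70 FPKM in IRI.

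The remaining 8 members have an outer membrane place or a less certain substrate, and 2 of the 6 tested were lower. Slc25a35 fell by 0.88 ± 0.17 (adjusted p = 0.00055), with means of 5.43 ± 0.939 FPKM in sham and 3.51 ± 0.907 FPKM in IRI (SD, n = 5). Slc25a48 was called lower (-0.42 ± 0.17, adjusted p = 0.0438) with overlapping groups, and the call ended with library totals, by limma, with no filter, with edgeR's own count filter and without any 1 library except IRI replicate 3 or 4 (adjusted p = 0.0540 to 0.107). Slc25a34 was at 17.1 FPKM in IRI replicate 3 and 6.72 to 8.63 FPKM in the other IRI libraries, against 8.69 to 12.8 FPKM in sham. It was not called (-0.47 ± 0.24), but was lower without IRI replicate 3 (-0.78, adjusted p = 0.000608).

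Slc25a46, a protein of the outer membrane that acts in fusion and fission, was at 11.02 to 12.8 FPKM in sham and 10.7 to 15.0 FPKM in IRI and was not called (-0.06 ± 0.09). Slc25a45 ranged over 13.9 to 18.4 FPKM in sham and 16.1 to 28.6 FPKM in IRI and was called higher only with library totals (0.53), by limma, and without IRI replicate 2 (0.39). Slc25a47, known from liver, ranged over 0.77 to 1.23 FPKM in sham and 1.09 to 2.05 FPKM in IRI and was not called (0.41 ± 0.19). It was called higher with library totals (0.67), by limma, and without sham replicate 5 or IRI replicate 1. Every IRI library but only sham replicates 3 and 5 reached 1 FPKM, and edgeR with no filter did not call it (adjusted p = 0.145). Slc25a43 had 31 counts in sham and 94 in IRI and was called higher with no filter (1.33 ± 0.39, adjusted p = 0.0102). Slc25a53 had 232 and 414 counts and was not called (0.57 ± 0.24), or was higher without sham replicate 5 (0.69, adjusted p = 0.0441) and with edgeR's own count filter (0.57, adjusted p = 0.0448). Its locus overlaps Zcchc18 on the other strand, which had 48.6% as many counts and also rose (1.24).

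**Figure D3:**
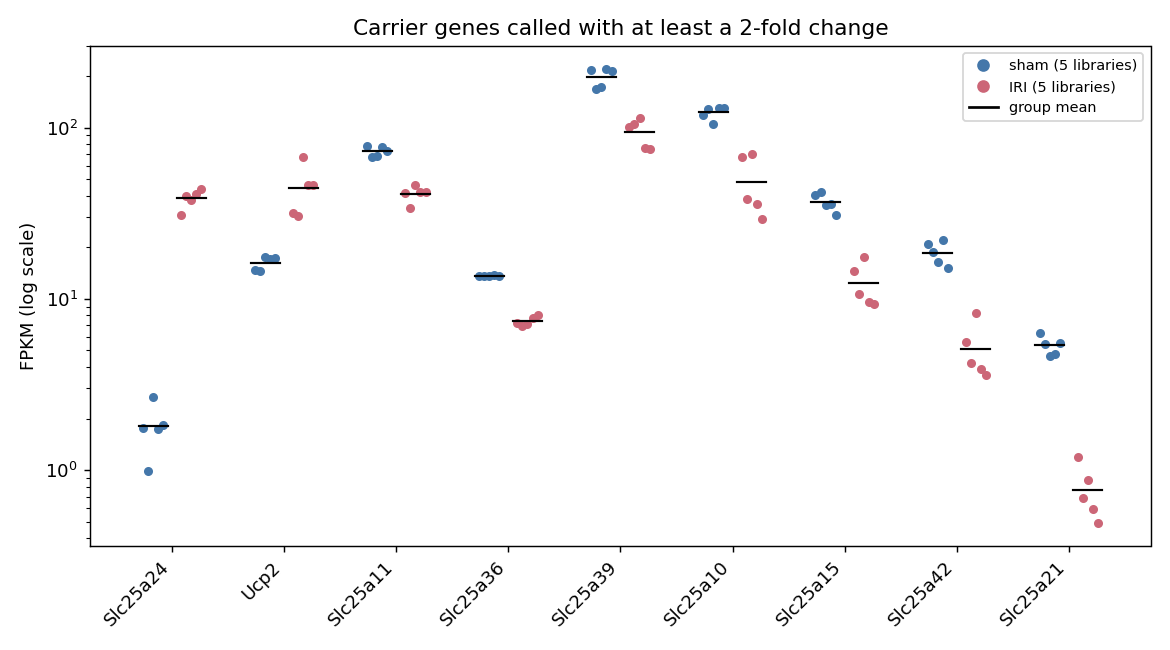
FPKM on a log axis in each of 5 sham and 5 IRI libraries for 9 carriers called with at least a 2-fold change, with group means as lines. Slc25a24 and Ucp2 are higher and the other 7 lower in IRI, and the points of the groups do not overlap for any of the 9.

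Carriers called with at least a 2-fold change lie on several chromosomes in the deposited coordinates (GRCm39). Slc25a24 is on chromosome 3 from 109030465 to 109075773, Ucp2 on chromosome 7 from 100142544 to 100151227 and Slc25a36 on chromosome 9 from 96957014 to 96993210. Slc25a15 lies on chromosome 8 from 22865567 to 22888613, and Slc25a42 on chromosome 8 from 70636990 to 70664955. Slc25a11, Slc25a39 and Slc25a10 share chromosome 11, from 70535022 to 70538305, 102293811 to 102298772 and 120382666 to 120390013. Slc25a21 is on chromosome 12 from 56759419 to 57244257.

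Among the 21 lower carriers, IRI replicate 3 had the highest IRI level for 13, replicate 1 for 4, replicate 5 for 3 and replicate 2 for 1. IRI replicate 1, with the highest proximal tubule marker sum (1026 FPKM), was the lowest IRI library for 5 of them, and IRI replicate 3, with a marker sum of 366 FPKM, for none. IRI replicate 4, with the smallest marker sum (164 FPKM), was the highest library for none and the lowest for 3. Replicate 5 (199 FPKM) was the lowest for 7 and replicate 2 (362 FPKM) for 6. All 10 proximal tubule markers were lower in IRI. The part of this fall in the carrier levels was not tested.

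Related carriers were also compared as ratios within a library, where library scaling cancels except through the 1 FPKM added to each value. Of 12 pairs listed for their shared substrate or function, 11 were compared, and Slc25a22/Slc25a18 was left out because Slc25a18 stayed below 1 FPKM. The difference between groups in log2((FPKM + 1)/(FPKM + 1)) passed the threshold for 10 of these 11 by exact two-sided permutation of the libraries, adjusted over the 11 pairs. The smallest p this design allows is 0.00794 (0.0125 adjusted), and 7 pairs reached it. Pairs of other genes were not compared, so whether 10 of 11 is particular to carriers cannot be said. Of all genes tested, 66.9% were called singly by edgeR. Slc25a24 and Slc25a10 each entered more than 1 pair, so the pairs are not separate results.

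Within the ATP-Mg/phosphate group the order of the carriers turned over. The Slc25a24/Slc25a25 log2 ratio averaged -3.25 ± 0.47 in sham and 1.19 ± 0.56 in IRI (SD of 5 libraries, with a difference of 4.44, exact permutation adjusted p = 0.0125). The Slc25a24/Slc25a23 ratio was -2.82 ± 0.37 in sham and 1.52 ± 0.25 in IRI (difference 4.34, exact permutation adjusted p = 0.0125). As plain FPKM ratios these were 0.0351 to 0.111 in sham and 1.71 to 4.59 in IRI, and 0.0529 to 0.143 in sham and 2.33 to 3.84 in IRI. With nothing added the log2 differences were 5.12 and 5.02. Slc25a24 was thus the lowest of the 3 in every sham library and the highest in every IRI library.

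In the ADP/ATP pair, Slc25a5 exceeded Slc25a4 by FPKM ratios of 4.43 to 4.84 in sham and 2.46 to 4.43 in IRI. The log2 ratio differed by -0.62 (exact permutation adjusted p = 0.0125, n = 5 each), or by -0.76 without IRI replicate 1, whose FPKM ratio was that of the lowest sham library. With nothing added the exact permutation adjusted p was 0.0218. The glutathione carrier ratio Slc25a39/Slc25a40 was 81.5 to 129 in sham and 37.4 to 92.1 in IRI, a difference of -0.95 (exact permutation adjusted p = 0.0125), but the plain ratio of IRI replicate 1 lay inside the sham range, and with nothing added the difference was -0.87 (exact permutation adjusted p = 0.0349). The pyrimidine carrier ratio Slc25a33/Slc25a36 was 0.4 to 0.542 in sham and 0.769 to 1.45 in IRI, and the difference of 1.15 came with no overlap (exact permutation adjusted p = 0.0125).

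For coenzyme A, the Slc25a16/Slc25a42 ratio was 1.02 to 1.71 in sham and 2.02 to 4.95 in IRI (difference 1.15, exact permutation adjusted p = 0.0125). The citrate carrier Slc25a1 gained on Slc25a10, with ratios of 0.345 to 0.455 in sham and 0.66 to 1.17 in IRI (difference 1.12, exact permutation adjusted p = 0.0125). The Slc25a11/Slc25a10 ratio overlapped between groups (difference 0.60, exact permutation adjusted p = 0.0349). Leaving out any 1 sham library ended this call (0.56 to 0.63, exact permutation adjusted p = 0.0611 to 0.0873). Aralar gained on citrin, with a Slc25a12/Slc25a13 difference of 0.53, and mitoferrin Slc25a37 lost against Slc25a28 by -0.60 (exact permutation adjusted p = 0.0194 for each), both with overlap. The Slc25a14/Slc25a30 ratio was 0.0544 to 0.107 in sham and 0.072 to 0.0925 in IRI and did not pass (difference -0.06, exact permutation adjusted p = 0.643, with a difference of 0.05 when nothing is added).

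**Figure D4:**
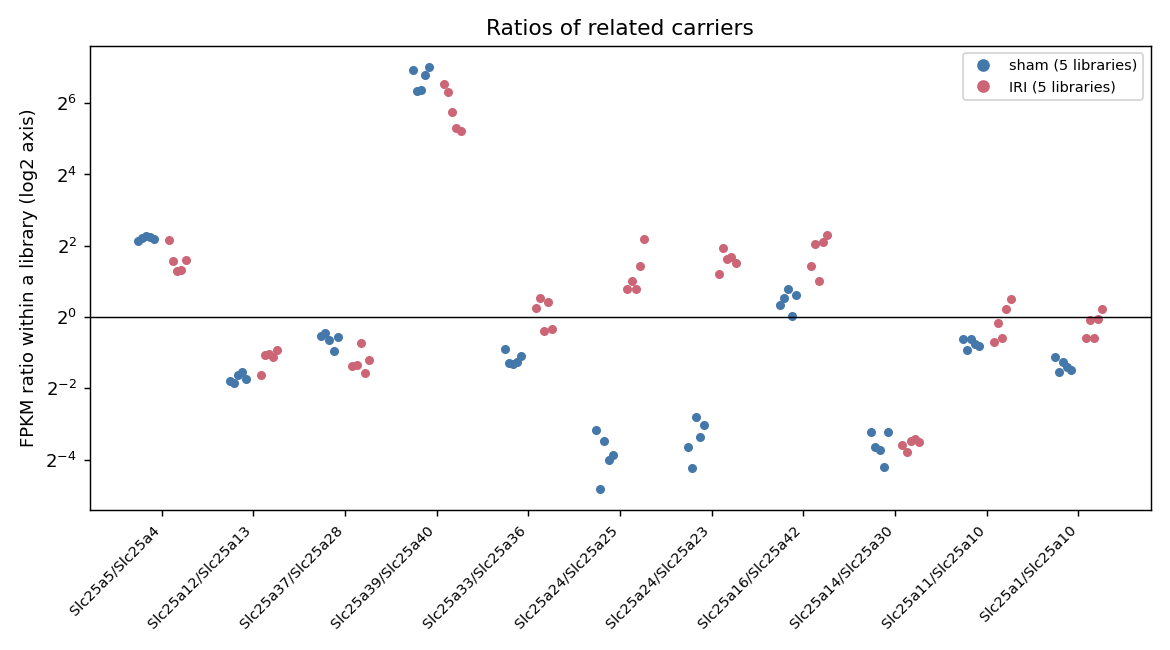
FPKM ratio of related carriers within each of 5 sham and 5 IRI libraries, on a log2 axis, with a line at a ratio of 1. Both Slc25a24 ratios lie below 1 in every sham library and above 1 in every IRI library, and the Slc25a14/Slc25a30 points of the groups overlap.

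Sequences before the start sites were read for the letters of regulatory motifs. RefSeq windows (GRCm38.p6, 250 bases before to 50 after the start) were matched by symbol for 39 carriers. Both strands were searched for the CCAAT box, for CRE (TGACGTCA), AP-1 (TGANTCA), ATF4-CARE (TGATGNAAN), ERR (TCAAGGTCA) and NRF1 (GCGCATGCG). No motif contains another. The 250 bases before the start are given for Slc25a24, the largest rise, which held none of them, for Slc25a42, which held the CCAAT letters 5 times, and for Slc25a36, which held a CRE and a CCAAT box. Capitals mark the matches on either strand.
Slc25a24, chr3:109122899-109123148, plus strand: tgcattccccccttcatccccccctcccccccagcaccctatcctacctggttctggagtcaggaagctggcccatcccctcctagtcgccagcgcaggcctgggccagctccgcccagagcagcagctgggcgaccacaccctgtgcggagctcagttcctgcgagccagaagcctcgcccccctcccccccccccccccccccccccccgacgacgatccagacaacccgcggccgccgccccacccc
Slc25a42, chr8:70212282-70212531, minus strand: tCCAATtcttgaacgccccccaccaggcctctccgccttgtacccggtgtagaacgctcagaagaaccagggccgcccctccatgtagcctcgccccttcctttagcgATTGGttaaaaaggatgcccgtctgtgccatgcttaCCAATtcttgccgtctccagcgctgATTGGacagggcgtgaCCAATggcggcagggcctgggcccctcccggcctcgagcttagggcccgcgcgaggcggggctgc
Slc25a36, chr9:97111042-97111291, minus strand: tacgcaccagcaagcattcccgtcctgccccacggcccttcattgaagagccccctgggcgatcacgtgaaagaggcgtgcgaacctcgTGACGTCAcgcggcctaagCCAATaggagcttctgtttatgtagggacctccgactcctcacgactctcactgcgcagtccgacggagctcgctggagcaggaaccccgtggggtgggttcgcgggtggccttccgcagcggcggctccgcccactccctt

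The CCAAT letters were in windows of 19 of the 39 carriers (48.7%) and of 41.1% of 27025 genes. They were found for 10 of 17 lower, 2 of 5 higher and 6 of 10 uncalled carriers with a window. A CRE was found for Slc25a25 and Slc25a36 (5.13%, against 2.03% of all genes), both lower, and AP-1 letters for Slc25a11 and Slc25a13 (5.13%, against 8.97%). The ATF4-CARE, ERR and NRF1 letters were in none of the 39, and in 4.50%, 0.466% and 1.95% of all genes. These are matches of letters in a short window and say nothing of binding.

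Genes that work with the carriers were read from lists of 99 genes, of which 96 were tested, with 54 lower (56.25%), 15 higher (15.6%) and 27 not called, against 32.4% lower and 34.5% higher of all genes. ATP synthase, which uses the ADP and phosphate that Slc25a4, Slc25a5 and Slc25a3 deliver, had 14 of 15 subunits lower and none higher (median -0.87). Atp5mf (-1.08 ± 0.13), Atp5f1c (-0.96 ± 0.10) and Atp5pf (-0.96 ± 0.13) fell most, and Atp5mc2 was not called (-0.01 ± 0.22). The malate-aspartate and glycerophosphate shuttle enzymes gave 3 lower and 1 higher of 6 (median -0.31). Mdh1 (-1.55 ± 0.16) and Gpd1 (-1.15 ± 0.20), dehydrogenases of the cytosol, fell, as did Mdh2 (-0.46 ± 0.10, or -0.21 with library totals, adjusted p = 0.0587), and the cytosolic aminotransferase Got1 rose (0.63 ± 0.09).

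Ornithine and proline enzymes gave 3 higher and 4 lower of 8 tested (median -0.85), or 5 higher and 4 lower of 10 with no filter (median 0.30). Arg2, the mitochondrial arginase that makes ornithine, rose from 3.55 to 51.0 FPKM (3.60 ± 0.32), and Aldh18a1 (2.33 ± 0.20), an enzyme of proline synthesis, was higher but passed the filter only through IRI libraries (0.54 to 0.96 FPKM in sham, 3.32 to 5.70 FPKM in IRI). Ass1 (-2.48 ± 0.41), which condenses citrulline with aspartate, and the proline breakdown enzymes Aldh4a1 (-2.16 ± 0.25) and Prodh (-1.65 ± 0.19) fell. Otc had 0 counts in all libraries, which allows up to 3 counts.

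Carnitine and coenzyme A enzymes gave 4 lower and none higher of 9 (median -0.06, or 0.20 with 3 higher under library totals), with the coenzyme A synthesis enzymes Pank1 (-2.99 ± 0.18) and Coasy (-1.73 ± 0.16) and the carnitine transferase Cpt2 (-0.86 ± 0.18) lower. Pank2 (-0.06 ± 0.08) and Pank3 (-0.002 ± 0.15), of the same list, were not called. Of 10 partners in mitochondrial iron and glutathione metabolism, 7 were lower and 2 higher (median -0.68). Gss (-1.31 ± 0.15) and the iron-sulfur cluster genes Nfs1 (-1.23 ± 0.11) and Iscu (-1.12 ± 0.11) fell, and Gclc (1.12 ± 0.20) and Gsr (0.52 ± 0.09) rose. Gclm, the other glutamate-cysteine ligase subunit gene of this list, was lower (-0.87 ± 0.09). Porins and other inner membrane transporters gave 14 lower and 4 higher of 23 (median -0.54). The sideroflexins Sfxn2 (-1.67 ± 0.13), Sfxn5 (-1.62 ± 0.13) and Sfxn1 (-1.41 ± 0.19) fell. Mcub, a subunit that restrains the calcium uniporter, was higher (2.70 ± 0.48), though it passed the filter only through IRI libraries (sham at or below 0.61 FPKM). Also higher were Sfxn3 (1.47 ± 0.09) and the uniporter gene Mcu (0.44 ± 0.09).

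The import route of the carriers gave 4 lower, 1 higher and 8 not called of 13 (median -0.05), and its 30.8% lower is near the 32.4% of all genes. Timm8b (-0.87 ± 0.14), Timm9 (-0.65 ± 0.15) and Timm13 (-0.49 ± 0.16), small chaperones of the intermembrane space, were lower, as was Timm22, and Tomm40, the outer membrane pore, was higher (0.28 ± 0.11). The Tomm40 call was marginal and ended with RLE factors, with no filter, by DESeq2, with the replicate block and without any 1 of sham replicates 1 to 4 or IRI replicates 2 to 4. With library totals 2 were lower and 5 higher, the calls of Timm13 and Timm22 ended, and the median was 0.20. Of 12 transcriptional regulators of mitochondrial genes 4 were higher and 4 lower, 33.3% each and near the shares of all genes (median -0.15, or 0.11 with 5 higher and 2 lower under library totals). Myc (3.39 ± 0.22), Atf4 (1.92 ± 0.18) and Pprc1 (1.60 ± 0.17) rose. The estrogen-related receptors Esrrg (-1.07 ± 0.20) and Esrra (-0.94 ± 0.11) fell, and the third receptor, Esrrb, was not called (0.22 ± 0.28). The mitochondrial factor Tfam (-0.39 ± 0.09) and Ppargc1a (-0.34 ± 0.11) were lower, but neither was called with library totals. Adjusted p-values of the called list genes named here ranged from 1.34e-07 (Pank1) to 0.0464 (Tomm40) by edgeR.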

How the data were processed

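Poly(A) RNA of 10 kidney libraries was sequenced as paired reads, per the labels' protocols. The authors deposited whole-number counts and FPKM per gene in 1 table. Per the submitters' processing notes, cutadapt 1.9.1, HISAT2 2.0.1, HTSeq 0.6.1 and GRCm39 were used, without roles or settings. The strand setting of the counting was not stated, so opposite-strand genes that overlap may share reads. Deposited FPKM matched each count divided by gene length and by library total (tolerance 0.005 FPKM or 0.1%).

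Symbols came from a table of gene names (52083 of 55359 identifiers), and newer ATP synthase names from RefSeq synonyms. Genes with at least 1 FPKM in 5 libraries (13324) were tested on counts with edgeR 4.0.16 (quasi-likelihood, TMM, R 4.3.3), with Benjamini-Hochberg adjustment over all of them. Standard errors are the log2 fold change over the square root of F. Calls are at an adjusted p under 0.05. Members below the filter were read from the same test with no filter. Errors of FPKM are SDs of 5 libraries. Log2 ratios used FPKM + 1. On simulated counts for 13324 genes edgeR recovered 52% of genes changed 1.5-fold and 100% of those changed 2-fold, with 6.38% of calls false. The simulation changed 50 genes per fold, drawn above a minimum sham count, and used the spread of the sham libraries for both groups. These rates may therefore not hold for low carriers or for this comparison, where 66.9% of genes were called. Alternatives were library totals, RLE factors, other filters, DESeq2 1.42.0, limma 3.58.1 on log2(FPKM + 1) and log2(FPKM + 0.1), a stricter threshold, a replicate block and leaving out each library.

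The members and lists were chosen with earlier results of these data known. Named genes were every member except 1, with values in each library for those called at least 2-fold at 5 FPKM or more, those in pairs, Ucp2 and Slc25a26, and up to 3 called genes per list and direction. The values of 1 carrier and 1 list gene are not reported here. Other members and genes are named outside that rule, after their values were seen.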

Additional observations from a re-analysis of the deposited data

Results flagged for a closer look

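For 41 tested carriers in each group (82 groups of 5 libraries), the gap of the highest or lowest library to its neighbour was compared with the range of the group (Dixon's ratio). It passed the 95% limit in 2 groups (2.44%), and chance gives about 5%. Slc25a25 was at 15.7 FPKM in sham replicate 1 and 27.0 to 29.9 FPKM in the other sham libraries. Slc25a34 was at 17.1 FPKM in IRI replicate 3 and 6.72 to 8.63 FPKM in the other IRI libraries.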

How the results depend on the processing

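Counts of carriers called higher were 5, and 10 with library totals, 8 with edgeR's own count filter, and 11 by limma on either log2(FPKM + 1) or log2(FPKM + 0.1). Lower calls were 21 and ranged from 18 to 22 over all alternatives. Leaving out each library gave 5 to 6 higher and 19 to 22 lower carriers. List genes called higher were 15, and 25 with library totals and by limma with either pseudocount, and 13 to 16 without each library. Lower list genes were 54, or 45 with library totals. The carriers whose calls changed are named beside their values, and the cause was not tested. No called carrier changed sign under any alternative run. The replicate numbers did not pair the libraries (correlations of same-numbered deviations -0.247 to 0.0567), and no library correlated best with its own number. With the replicate block, carriers gave the same counts, 5 higher and 21 lower. A sign-flip test over numbered pairs passed 0 of 11 carrier ratios, since its smallest p is 0.0625, and it says nothing of stability. Without each library 9 to 10 of the 11 ratios passed. Counts limit Slc25a2, Slc25a18, Slc25a31, Slc25a41, Slc25a43, Slc25a53, Slc25a54, Ucp1 and Ucp3, for which a difference may not be detectable at this depth.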
